A study of Mus musculus with 20 samples.

Results

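The antiviral interferon-stimulated genes are 38 mouse genes taken by symbol from a fixed list, and all 38 were found among the 56941 gene identifiers of the count table, with Ddx58 (the gene for RIG-I) listed under that symbol. Of these, 37 passed the filter on low counts and were tested, and Ifitm1 did not, with at most 2.88 CPM, the counts scaled to library size, in any library. RNA was sequenced after poly(A) selection from BV-2, an immortalized mouse microglial line, and from a derivative of it labelled as an RGS10 knockout (KO below; WT is the unmodified line). Both lines were kept for 48 h with interferon gamma (IFNγ) at 10 ng/mL or with vehicle, which gave 4 groups, KO with IFNγ, WT with IFNγ, KO with vehicle and WT with vehicle. Each group held 5 libraries, of which replicates 1 to 3 were batch 1, replicate 4 was batch 2 and replicate 5 was batch 3. The labels do not say how the RGS10 gene was disrupted or whether the KO line is 1 clone, and all groups share the immortalized background.

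Interferons of type I (alpha and beta) signal through the kinases Jak1 and Tyk2 to a complex that contains Stat2 and Irf9 and binds interferon-stimulated response elements in promoters. IFNγ, the type II interferon, acts mainly through gamma-activated sites in promoters, and many antiviral genes answer to both. The products of these genes detect foreign nucleic acids, degrade or edit viral RNA, starve viruses of nucleotides, stop translation, or keep virions from entering and leaving the cell, and microglia use them as the resident immune cells of the brain.

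The libraries held 15866749 to 29157740 counts each, and values below are CPM on library sizes scaled by TMM, a method that sets scaling factors from the bulk of the genes. The factors were 0.89 and 0.88 in the KO libraries with IFNγ of batches 2 and 3. They were 0.63 and 0.76 in the WT libraries with IFNγ of those batches, and 1.01 to 1.12 in all 16 others. The nuclear RNA Malat1 was at 1624 and 1142 CPM in the same KO libraries with IFNγ, where batch 1 of that group had 53.1 to 59.3 CPM. It was at 2387 and 1250 CPM in the same WT libraries with IFNγ, where batch 1 had 337 to 370 CPM. The part of these library differences in the results below was not tested. Values by library or batch are given for some of the genes below and not for all called genes. Rgs10 was still read in KO libraries, at 28.2 ± 4.56 CPM in KO with vehicle and 63.0 ± 6.62 CPM in WT with vehicle (mean ± SD, n = 5 each). The log2 difference was −1.17 ± 0.17 (edgeR adjusted p = 3.2e-05), and with IFNγ the lines were −0.33 log2 apart (edgeR adjusted p = 0.13). Rgs10 itself fell with IFNγ in WT cells, at −1.17 ± 0.17 log2 (edgeR adjusted p = 1e-05). In KO cells its change of −0.33 ± 0.17 was not called (edgeR adjusted p = 0.12). The difference of these changes was 0.84 ± 0.24 (edgeR adjusted p = 0.044). All 10 microglial and macrophage markers on the list were read in every group, with summed levels of 5019 to 6786 CPM in KO with IFNγ, 8250.1 to 12293 CPM in WT with IFNγ, 2968 to 3439 CPM in KO with vehicle and 4591 to 7115 CPM in WT with vehicle. Markers of neurons, astrocytes, oligodendrocytes, fibroblasts and lymphocytes summed to at most 7.01 CPM in any library. Of 5 endothelial markers, Kdr accounted for most of the sum. That sum was 32.7 to 217 CPM in KO with IFNγ and 42.0 to 59.0 CPM in WT with IFNγ. With vehicle it was 214 to 365 CPM in KO and 25.2 to 38.4 CPM in WT. Cldn5 had no read in KO with IFNγ, KO with vehicle or WT with vehicle, and Tek had none in KO with vehicle. Pecam1 and Cdh5 reached 1 CPM in at least 1 library of every group but KO with vehicle. The part of these marker levels in the results was not tested.

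Promoters of the genes were read for the core of the interferon-stimulated response element, GAAA, any 2 bases, GAAA, and for the gamma-activated site, TTCNNNGAA, on both strands of windows from 250 bases before to 50 bases after the transcription start (RefSeq, GRCm38.p6). Windows were at hand for 28 of the 38 genes. The response element core was present in 14 of the 28, against 3.99% of 27025 genes, and the gamma-activated site in 10 of the 28, against 9.55%. Both motifs occurred in 4 windows (Oas1a, Eif2ak2, Ifitm3 and Bst2) and neither in 8. A match is a run of letters and not a shown binding site. The 5 windows printed here belong to genes whose measured behaviour is described below, with every response element core, or its reverse complement, in capitals. Ifitm3 (chr7:141010695-141010994, minus strand) and its neighbour Ifitm6 (chr7:141016843-141017142, minus strand) had the largest differences between the lines with vehicle. Ifit3 (chr19:34583279-34583578, plus strand) and Rsad2 (chr12:26456403-26456702, minus strand) rose with IFNγ in both lines, and Ddx58 (chr4:40239776-40240075, minus strand) fell in both.
Ifitm3: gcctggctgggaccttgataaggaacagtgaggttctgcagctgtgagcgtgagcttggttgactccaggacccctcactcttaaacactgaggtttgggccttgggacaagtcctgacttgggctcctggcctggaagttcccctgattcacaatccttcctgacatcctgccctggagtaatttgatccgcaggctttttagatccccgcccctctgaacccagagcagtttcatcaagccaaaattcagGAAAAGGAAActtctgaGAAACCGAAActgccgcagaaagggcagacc
Ifitm6: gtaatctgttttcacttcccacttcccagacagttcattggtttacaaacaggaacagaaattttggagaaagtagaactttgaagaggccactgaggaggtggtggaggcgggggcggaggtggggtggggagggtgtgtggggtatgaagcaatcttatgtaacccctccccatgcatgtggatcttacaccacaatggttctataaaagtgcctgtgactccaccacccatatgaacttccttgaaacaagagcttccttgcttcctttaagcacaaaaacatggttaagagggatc
Ifit3: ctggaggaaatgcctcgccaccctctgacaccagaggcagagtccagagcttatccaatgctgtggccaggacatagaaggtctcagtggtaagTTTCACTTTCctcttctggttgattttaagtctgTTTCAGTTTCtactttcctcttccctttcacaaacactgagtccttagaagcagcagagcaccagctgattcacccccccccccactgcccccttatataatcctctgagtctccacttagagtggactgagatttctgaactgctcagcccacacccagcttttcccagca
Rsad2: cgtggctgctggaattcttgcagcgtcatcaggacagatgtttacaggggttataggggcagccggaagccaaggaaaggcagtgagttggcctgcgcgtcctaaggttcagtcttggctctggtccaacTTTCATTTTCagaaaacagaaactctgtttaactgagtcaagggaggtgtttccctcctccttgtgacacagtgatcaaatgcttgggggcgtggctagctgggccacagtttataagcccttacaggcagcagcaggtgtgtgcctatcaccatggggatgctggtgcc
Ddx58: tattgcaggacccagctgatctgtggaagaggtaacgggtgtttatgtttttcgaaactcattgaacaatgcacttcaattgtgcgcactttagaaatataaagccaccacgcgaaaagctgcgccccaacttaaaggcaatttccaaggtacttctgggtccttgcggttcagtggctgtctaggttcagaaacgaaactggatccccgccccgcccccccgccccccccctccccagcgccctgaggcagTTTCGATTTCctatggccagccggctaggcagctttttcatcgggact
The cores of Ifitm3 begin 2 and 19 bases after the start, and a gamma-activated site that begins 13 bases after the start overlaps the downstream core by its letters. The Ifitm6 window has no core and has a gamma-activated site that begins 10 bases before the start. The cores of Ifit3 begin 156 and 122 bases before the start, that of Rsad2 120 bases before it, and that of Ddx58 2 bases after it. Of 14 tested genes with the core, 7 rose and 1 fell with IFNγ in KO cells, and 5 rose and 4 fell in WT cells. Of 13 tested genes whose window lacked it, 8 rose and 5 were not called in KO cells, and 7 rose and 2 fell in WT cells. Over all genes 21.4% rose and 21.8% fell in KO cells, and 29% rose and 29.9% fell in WT cells, by the test described next.

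The response to IFNγ was read within each line. The test was edgeR's quasi-likelihood test over all 13755 tested genes with batch as a term, at an adjusted p under 0.05. In KO cells 21 of the 37 tested genes rose and 3 fell with IFNγ, where 21.4% of all genes rose and 21.8% fell. In WT cells 15 rose and 9 fell, where 29% of all genes rose and 29.9% fell. In either direction 64.9% of the list was called in both lines, beside 43.2% of all genes in KO cells and 58.9% in WT cells. In percent of the list, 56.8% rose and 8.11% fell in KO cells, and 40.5% rose and 24.3% fell in WT cells. The median log2 change was 0.67 in KO cells, beside −0.02 over all genes, and 0.21 in WT cells, beside 0.01 over all genes. Changes of more than 1 log2 were called upward for 13 genes and downward for 2 in KO cells (10.8% and 6.04% of all genes), and upward for 11 and downward for 4 in WT cells (16.5% and 13.6% of all genes). In cell cultures read in bulk, fewer cells that express a gene and less RNA per cell cannot be told apart.

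By gene, 14 rose in both lines: Bst2, Cmpk2, Dtx3l, Ifi203, Ifi204, Ifih1, Ifit2, Ifit3, Oasl1, Parp14, Rsad2, Samhd1, Xaf1 and Zbp1. Another 3, Ddx58, Ifi27 and Oas2, fell in both. Dhx58 rose in KO cells and fell in WT cells. For 6 genes a rise was called in KO cells and nothing in WT cells (Adar, Ifi44, Ifitm3, Mx1, Oas3 and Parp9). Oasl2 was called upward, and Eif2ak2, Ifitm2, Ifitm6, Isg20 and Oas1g downward, in WT cells with no call in KO cells. Neither line gave a call for Ifi35, Ifit1, Ifit3b, Mx2, Oas1a, Parp12 and Rtp4. A call in 1 line and none in the other is no test of a difference between the lines, which was tested separately and is given further on. The heat map of levels shows these patterns library by library.

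**Figure D1:**
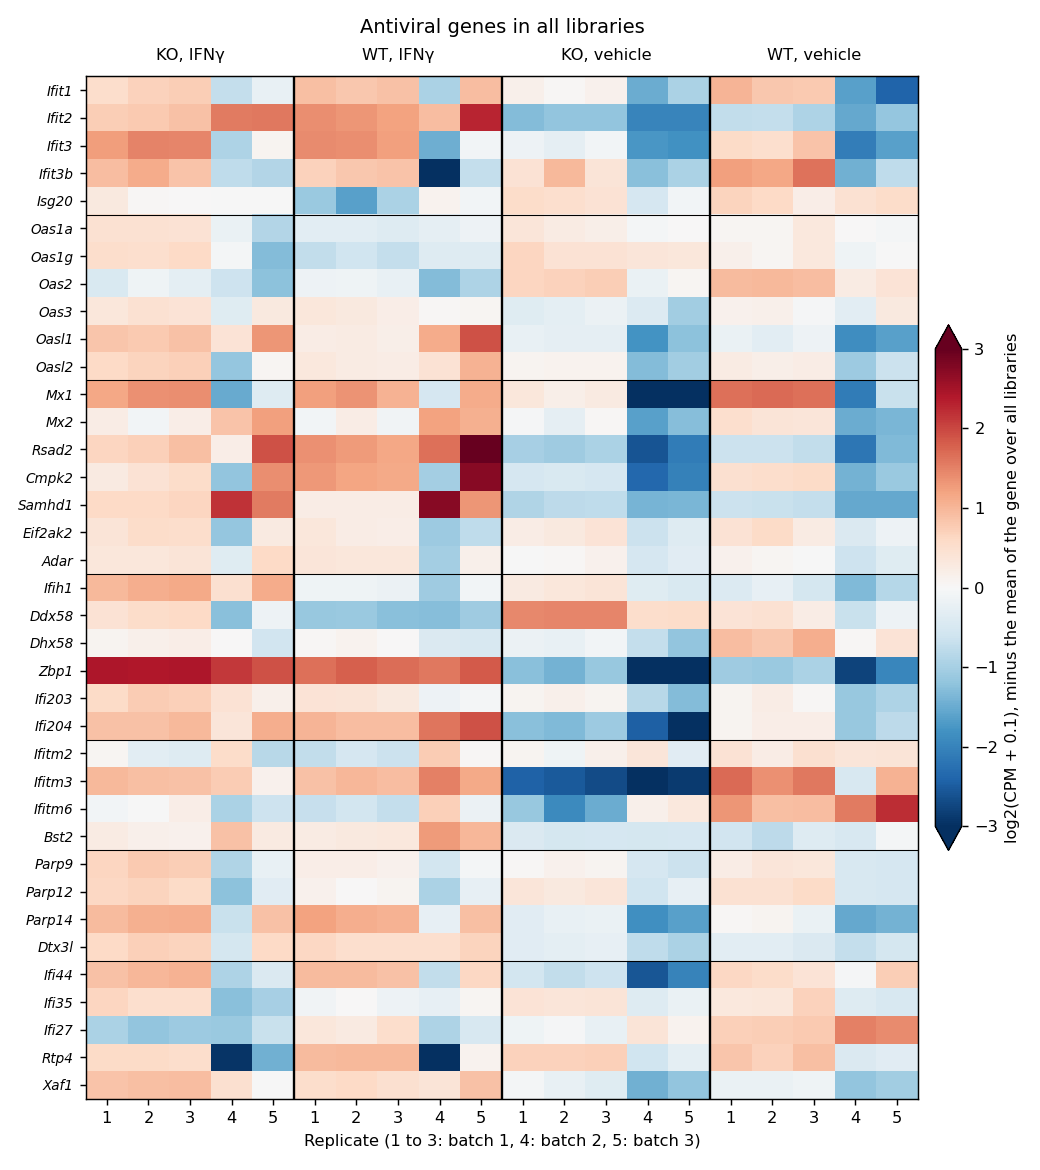
Log2(CPM + 0.1) of the 37 tested antiviral genes in the 20 libraries, each gene minus its own mean, with genes in rows by role and libraries in columns by group (KO with IFNγ, WT with IFNγ, KO with vehicle, WT with vehicle) and replicate. Zbp1, Rsad2, Ifit2 and Samhd1 are higher in the IFNγ columns of both lines, and Ifitm3 is lowest in the KO vehicle columns.

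Among the RNA-binding IFIT proteins and the exonuclease Isg20, Ifit2 and Ifit3 rose in both lines. Values per library are given throughout for replicates 1 to 3 (batch 1), then batch 2, then batch 3. Ifit2, an RNA-binding inhibitor of translation, had 176, 183, 197, 315 and 319.5 CPM in KO with IFNγ, against 43.2, 46.4, 46.8, 26.7 and 26.8 CPM in KO with vehicle. It had 279, 267, 245, 203 and 516 CPM in WT with IFNγ, against 63.1, 64.0, 55.9, 36.3 and 47.7 CPM in WT with vehicle. Every IFNγ library lay above every vehicle library of its line, and the log2 changes were 2.65 ± 0.26 in KO cells (edgeR adjusted p = 1.6e-07) and 2.46 ± 0.25 in WT cells (edgeR adjusted p = 1.4e-07). Ifit3, which stabilizes IFIT complexes on viral RNA and lies next to Ifit2 on chromosome 19, averaged 39.2 ± 21.5 CPM in KO with IFNγ and 13.3 ± 6.82 CPM in KO with vehicle, and 36.9 ± 22.1 CPM in WT with IFNγ and 21.6 ± 14.8 CPM in WT with vehicle. Libraries of batches 2 and 3 lay below those of batch 1 in all 4 groups. Within batches 1, 2 and 3 the log2 response was 1.57, 0.82 and 1.91 in KO cells and 0.72, 0.59 and 1.54 in WT cells. Ifit1, which binds viral RNA with an incomplete cap, changed by 0.63 ± 0.31 log2 in KO cells (edgeR adjusted p = 0.1) and 0.66 ± 0.31 in WT cells (edgeR adjusted p = 0.078), short of the threshold, and the WT value within batches was −0.0022, 0.69 and 3.33. The near-identical Ifit3b was low, with 0.988 to 4.18 CPM in KO with IFNγ and no read in the WT library with IFNγ of batch 2, where 3 counts are worth 0.234 CPM. How reads shared by near-identical copies were counted is not given in the sources used here. The split between Ifit3 and Ifit3b, between Oas1a and Oas1g, among the Ifitm genes and between Ifi203 and Ifi204 is uncertain. Isg20 went the other way in WT cells, with 3.40, 2.36, 3.83, 8.10 and 7.11 CPM in WT with IFNγ and 11.9, 11.4, 8.67, 10.4 and 11.0 CPM in WT with vehicle. The groups did not overlap. The change of −1.15 ± 0.29 log2 was called (edgeR adjusted p = 0.0019), while in KO cells it was −0.17 ± 0.28 (edgeR adjusted p = 0.64). That fall was −1.73, −0.36 and −0.63 log2 within batches 1, 2 and 3, and without batch 1 it missed the threshold.

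The oligoadenylate synthetase (OAS) family, which makes a signal molecule in answer to double-stranded RNA, split in direction. The OAS-like gene Oasl1, which in mice restrains production of the transcription factor Irf7, rose by 1.54 ± 0.37 log2 in KO cells (edgeR adjusted p = 0.0027) and 1.66 ± 0.39 in WT cells (edgeR adjusted p = 0.0012), with within-batch responses of 1.08, 2.22 and 2.55 in KO cells and 0.44, 2.99 and 3.54 in WT cells. Oas2, an interferon-induced synthetase, had 46.8, 58.5, 52.5, 41.6 and 27.3 CPM in KO with IFNγ, against 99.6, 103, 108, 55.7 and 67.1 CPM in KO with vehicle. It had 57.3, 58.7, 55.0, 26.1 and 33.6 CPM in WT with IFNγ, against 124, 126, 122, 75.8 and 85.7 CPM in WT with vehicle. WT groups did not overlap, and KO groups overlapped across batches but not within them. The fall was −0.92 ± 0.12 log2 in KO cells (edgeR adjusted p = 6.9e-06) and −1.24 ± 0.12 in WT cells (edgeR adjusted p = 6.2e-08). Oas3, the neighbour of Oas2 on chromosome 5, rose in KO cells by 0.67 ± 0.14 log2 (edgeR adjusted p = 0.00073) and was at 0.14 ± 0.14 in WT cells (edgeR adjusted p = 0.41). Its KO levels with IFNγ and vehicle were 203 and 127 CPM in batch 1 (means), 119 and 115 CPM in batch 2, and 189 and 74.4 CPM in batch 3. With batches 2 and 3 alone the KO call was lost (edgeR adjusted p = 0.14). Oas1g fell in WT cells, at −0.62 ± 0.21 log2 (edgeR adjusted p = 0.017), a call lost without the WT vehicle library of batch 3 (edgeR adjusted p = 0.051). Oasl2 rose in WT cells by 0.78 ± 0.25 log2 (edgeR adjusted p = 0.012). That call also rests on single libraries, since the change was 0.49 without the batch 2 WT library with IFNγ (edgeR adjusted p = 0.081) and 0.51 without the batch 3 one (edgeR adjusted p = 0.079). The batch 1 means of Oasl2 in WT cells were 213 CPM with IFNγ and 206 CPM with vehicle, and in batch 1 alone the call was lost. With IFNγ and vehicle it had 238 and 83.4 CPM in batch 2, and 365 and 114 CPM in batch 3. Oas1a, the gene with the highest mean CPM (not adjusted for length) among those called in neither line, had 191, 192, 189.5, 123 and 75.4 CPM in KO with IFNγ, against 179, 167, 159, 134 and 140.0 CPM in KO with vehicle. It had 113, 113, 108, 117 and 125 CPM in WT with IFNγ, against 146, 146, 174, 142 and 135 CPM in WT with vehicle. All 5 WT libraries with IFNγ lay below all 5 with vehicle. The change of −0.35 ± 0.16 log2 missed the threshold (edgeR adjusted p = 0.065), and in KO cells it was −0.05 ± 0.16 (edgeR adjusted p = 0.82) with the batch 3 library lowest.

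Of the Mx GTPases, nucleotide enzymes and RNA-directed enzymes, Rsad2, Cmpk2 and Samhd1 rose in both lines. Rsad2 (viperin), which turns the nucleotide CTP into a chain terminator for viral polymerases, had 401, 422, 476, 292 and 964 CPM in KO with IFNγ, against 128, 121, 131, 42.2 and 59.2 CPM in KO with vehicle. It had 657, 618, 572, 808 and 2706 CPM in WT with IFNγ, against 163, 165, 152, 56.7 and 101 CPM in WT with vehicle. The IFNγ and vehicle libraries did not overlap in either line. The rise was 2.31 ± 0.38 log2 in KO cells (edgeR adjusted p = 8.1e-05) and 2.97 ± 0.39 in WT cells (edgeR adjusted p = 3.2e-06). Cmpk2, a mitochondrial nucleotide kinase encoded beside Rsad2 on chromosome 12, rose by 1.36 ± 0.38 log2 in KO cells (edgeR adjusted p = 0.0075) and 1.24 ± 0.39 in WT cells (edgeR adjusted p = 0.01). The WT value was 0.78 without the batch 3 WT library with IFNγ, which held 449 CPM against 33.2 to 165 CPM in the other 4. Samhd1, which breaks down deoxynucleotides, had 1027, 1024, 1050.4, 3019 and 1995 CPM in KO with IFNγ, against 362, 391, 397, 258 and 263 CPM in KO with vehicle. It had 789.7, 793, 782, 4486 and 1695 CPM in WT with IFNγ, against 430.2, 426, 409, 232 and 235 CPM in WT with vehicle. The groups did not overlap in either line, and batches 2 and 3 stood above batch 1 with IFNγ and below it with vehicle. The log2 response within batches 1, 2 and 3 was 1.43, 3.55 and 2.93 in KO cells and 0.90, 4.27 and 2.85 in WT cells. The fitted rise was 2.09 ± 0.41 log2 in KO cells (edgeR adjusted p = 0.0004) and 1.97 ± 0.41 in WT cells (edgeR adjusted p = 0.00044).

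Mx1, a dynamin-like GTPase that in mice acts against influenza viruses, had 14.6, 17.1, 17.2, 2.21 and 5.00 CPM in KO with IFNγ, against 8.29, 7.38, 7.88, 0 and 0.606 CPM in KO with vehicle, where the library without a read allows up to 0.117 CPM (3 counts). It had 15.5, 16.8, 13.5, 4.60 and 14.2 CPM in WT with IFNγ, against 20.7, 21.3, 20.8, 1.44 and 4.03 CPM in WT with vehicle. Libraries of batches 2 and 3 lay below those of batch 1 in both KO groups and in WT with vehicle, so treatments overlapped. The rise of 1.58 ± 0.46 log2 in KO cells was called (edgeR adjusted p = 0.0099), while the WT change of 0.51 ± 0.46 was not (edgeR adjusted p = 0.35). Mx2 changed by 0.20, 2.47 and 2.51 log2 in KO cells and −0.41, 2.71 and 2.44 in WT cells within batches 1, 2 and 3, and was called in neither line. Eif2ak2 (the kinase PKR, which halts translation on sensing double-stranded RNA) fell in WT cells, at −0.36 ± 0.14 log2 (edgeR adjusted p = 0.034), a call lost with any of 4 libraries left out. These were the WT libraries with IFNγ of batches 2 and 3 and the WT vehicle libraries of replicates 2 and 4. Adar, which edits adenosine to inosine in double-stranded RNA, rose in KO cells by 0.41 ± 0.13 log2 (edgeR adjusted p = 0.017), a call lost without either KO library of batch 3.

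All 6 genes grouped here as nucleic acid sensors were called in both lines, in unlike directions. Of all genes 43.2% were called in KO cells and 58.9% in WT cells. Other genes that answer to double-stranded RNA are in the groups above, and Oas1a among them was called in neither line. Zbp1, a sensor of left-handed nucleic acids that can trigger cell death, had 267, 263, 267, 218 and 186 CPM in KO with IFNγ, against 20.7, 18.5, 22.7, 2.76 and 2.95 CPM in KO with vehicle. It had 158, 172, 159, 149.6 and 177 CPM in WT with IFNγ, against 23.6, 23.1, 25.7, 7.19 and 12.7 CPM in WT with vehicle. No library overlapped between treatments. The rise was the largest of the 37 tested genes in both lines, at 4.42 ± 0.39 log2 in KO cells (edgeR adjusted p = 5.4e-08) and 3.34 ± 0.37 in WT cells (edgeR adjusted p = 4e-07). Ifi204, of the DNA-binding PYHIN family, had 289, 289, 308, 200.3 and 335 CPM in KO with IFNγ, against 66.0, 63.0, 73.7, 28.7 and 19.2 CPM in KO with vehicle. It had 319, 298, 300.2, 477 and 591 CPM in WT with IFNγ, against 165, 179, 179.9, 71.6 and 91.7 CPM in WT with vehicle. Treatments did not overlap in either line. The rise was 2.57 ± 0.32 log2 in KO cells (edgeR adjusted p = 5e-06) and 1.66 ± 0.32 in WT cells (edgeR adjusted p = 0.00017). Its family member Ifi203 rose by 0.89 ± 0.15 log2 in KO cells (edgeR adjusted p = 0.0001) and 0.51 ± 0.15 in WT cells (edgeR adjusted p = 0.0068).

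The 3 RIG-I-like receptors each behaved differently. Ddx58 (RIG-I), the sensor of short double-stranded RNA with an uncapped end, had 133, 145, 149, 41.3 and 88.3 CPM in KO with IFNγ, against 267, 272, 272, 143 and 146 CPM in KO with vehicle. It had 44.7, 45.3, 41.4, 40.7 and 47.2 CPM in WT with IFNγ, against 131, 135, 115, 62.3 and 89.2 CPM in WT with vehicle. WT groups did not overlap, and the lower end of the KO vehicle group overlapped batch 1 of KO with IFNγ. The fall was −1.03 ± 0.18 log2 in KO cells (edgeR adjusted p = 0.00014) and −1.19 ± 0.18 in WT cells (edgeR adjusted p = 1.5e-05). Ifih1 (MDA5), the sensor of long double-stranded RNA, had 122, 133, 136, 86.5 and 135 CPM in KO with IFNγ, against 75.1, 78.8, 81.6, 48.2 and 45.0 CPM in KO with vehicle. It had 57.1, 57.2, 55.3, 29.7 and 58.6 CPM in WT with IFNγ, against 46.8, 52.5, 43.0, 24.6 and 34.3 CPM in WT with vehicle. KO groups did not overlap and WT groups did. The rise was 0.91 ± 0.13 log2 in KO cells (edgeR adjusted p = 1.6e-05) and 0.37 ± 0.13 in WT cells (edgeR adjusted p = 0.02). The WT call was lost without the vehicle library of batch 2, the vehicle library of batch 3 or the IFNγ library of batch 3. Dhx58 (LGP2), which lacks the signalling domain of the other two and modulates them, is described with the difference of the responses.

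**Figure D2:**
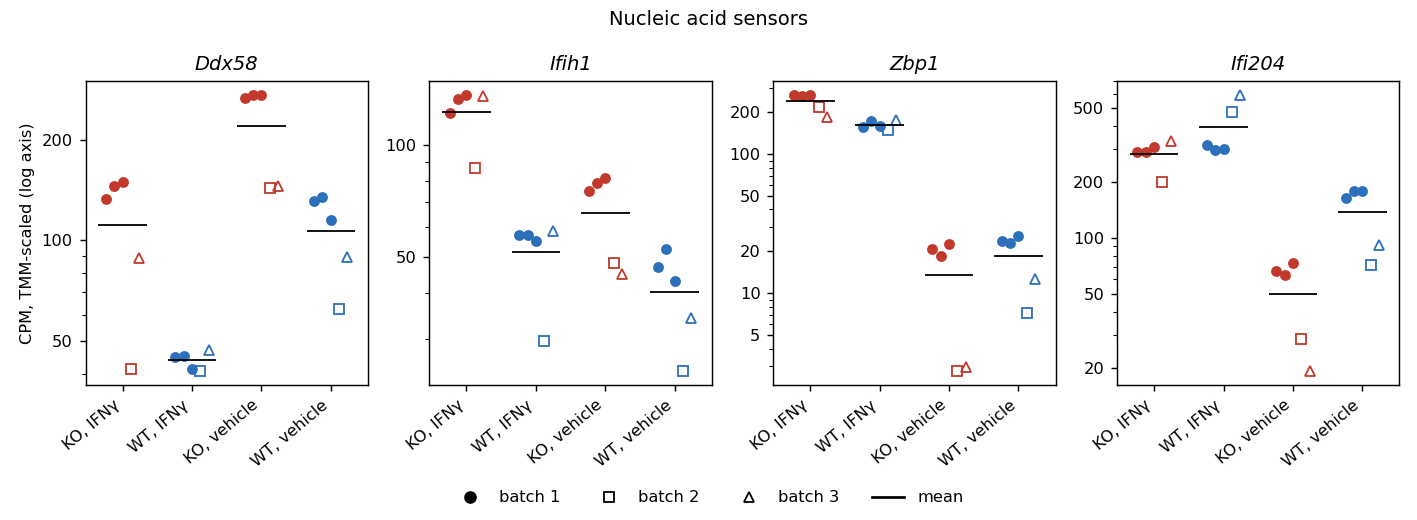
CPM of 4 nucleic acid sensors (Ddx58, Ifih1, Zbp1 and Ifi204) in every library, on a log axis, for KO with IFNγ, WT with IFNγ, KO with vehicle and WT with vehicle, with symbols for batches and bars for group means. Ddx58 and Ifih1 have higher group means in KO than in WT under both treatments, while Zbp1 and Ifi204 separate by treatment.

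Of the membrane proteins, Bst2 rose in both lines and the Ifitm genes, which encode small proteins that hinder fusion of viruses with cell membranes and lie side by side on chromosome 7, did not share a direction. Bst2 (tetherin), which holds budding virions to the cell surface, rose by 0.82 ± 0.16 log2 in KO cells (edgeR adjusted p = 0.00032) and 1.08 ± 0.16 in WT cells (edgeR adjusted p = 8.6e-06). Ifitm2 fell in WT cells, at −0.57 ± 0.20 log2 (edgeR adjusted p = 0.019), a call lost when any of 4 libraries was left out. These were the 3 WT libraries with IFNγ of batch 1 and the WT vehicle library of batch 3. The batch 1 means of Ifitm2 in WT cells were 21.7 CPM with IFNγ and 43.5 CPM with vehicle. Batch 2 went the other way, at 56.6 CPM with IFNγ and 42.8 CPM with vehicle. In batch 3 the levels were 34.1 and 43.7 CPM. Ifitm3 and Ifitm6 are described with the difference of the responses.

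Within the PARP and ubiquitin ligase group, Parp14, Dtx3l and Parp9 lie in a row on chromosome 16, and the Parp9 protein works as a complex with the ubiquitin ligase Dtx3l. Parp14, an ADP-ribosyltransferase, rose by 1.51 ± 0.18 log2 in KO cells (edgeR adjusted p = 2.5e-06) and 1.40 ± 0.18 in WT cells (edgeR adjusted p = 2.2e-06). Dtx3l rose by 0.95 ± 0.15 log2 in KO cells (edgeR adjusted p = 3.9e-05) and 1.03 ± 0.15 in WT cells (edgeR adjusted p = 6e-06). Parp9 rose by 0.41 ± 0.14 log2 in KO cells (edgeR adjusted p = 0.021), and its change in WT cells was 0.0019 ± 0.14 (edgeR adjusted p = 0.99). Within batches 1, 2 and 3 the KO value was 0.65, −0.41 and 0.41. Its KO call was lost without any of 5 libraries, replicates 1, 3 and 5 of KO with vehicle and 2 and 3 of KO with IFNγ. Parp12, another ADP-ribosyltransferase, was called in neither line. Among the remaining genes, Xaf1, a pro-apoptotic binding partner of the inhibitor XIAP, rose by 1.28 ± 0.19 log2 in KO cells (edgeR adjusted p = 2.2e-05) and 1.17 ± 0.19 in WT cells (edgeR adjusted p = 2.6e-05). Ifi27, a small interferon-inducible membrane protein gene, had 23.6, 20.005, 21.4, 21.3 and 28.7 CPM in KO with IFNγ, against 42.1, 44.7, 39.6, 60.3 and 49.1 CPM in KO with vehicle. It had 58.3, 55.7, 66.5, 24.2 and 32.8 CPM in WT with IFNγ, against 75.8, 76.8, 79.3, 130.3 and 122 CPM in WT with vehicle. Treatments did not overlap in either line. The fall was −1.04 ± 0.24 log2 in KO cells (edgeR adjusted p = 0.0016) and −0.999 ± 0.24 in WT cells (edgeR adjusted p = 0.0013). Ifi35 and the chaperone gene Rtp4 were called in neither line, and Rtp4 had 7.37 CPM in the batch 2 KO library with IFNγ and 6.54 CPM in the batch 2 WT library with IFNγ, below the other libraries of those groups.

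The KO and WT lines were next compared under vehicle. Of the 37 genes, 2 were higher in KO cells and 8 lower, where 12.5% of all genes were higher and 14.8% lower. The 10 calls are 27.0% of the list, beside 27.3% of all genes called in either direction, and the median log2 difference was −0.26, beside 0.03 over all genes. The genes that were higher were the receptors Ddx58, by 1.04 ± 0.18 log2 (edgeR adjusted p = 0.00018), and Ifih1, by 0.72 ± 0.13 log2 (edgeR adjusted p = 0.00028). Within-batch differences were 1.09, 1.20 and 0.71 for Ddx58 and 0.73, 0.97 and 0.39 for Ifih1. KO and WT vehicle libraries did not overlap for Ddx58 and overlapped across batches for Ifih1. The 8 lower genes were Ifitm3, Ifitm6, Ifi44, Mx1, Ifi204, Dhx58, Ifi27 and Oas3, with log2 differences from −3.99 to −0.49. Mx1, at the levels given above, differed by −1.67 ± 0.46 log2 (edgeR adjusted p = 0.0096), a call that was lost without the batch term (edgeR adjusted p = 0.26). With batches 2 and 3 alone the calls of Ddx58 (edgeR adjusted p = 0.062), Ifih1 (edgeR adjusted p = 0.19) and Oas3 (edgeR adjusted p = 0.25) were lost. That of Oas3 was also lost on plain library totals, without the batch term and without batch 3 (edgeR adjusted p of 0.052 to 0.062). Ifi204 differed by −1.46 ± 0.31 log2 (edgeR adjusted p = 0.0013) and Ifi27 by −1.03 ± 0.23 log2 (edgeR adjusted p = 0.0023), with no overlap of the lines for Ifi27. With batch 1 alone, 3 genes were higher and 23 lower, where 58.4% of all genes were called.

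With IFNγ on both sides, 3 of the 37 genes were higher in KO cells and 2 lower, where 20% of all genes were higher and 19.0% lower. The 5 calls are 13.5% of the list, beside 39.0% of all genes, and the median log2 difference was 0.02, beside 0.01 over all genes. Ifih1 was 1.27 ± 0.13 log2 higher (edgeR adjusted p = 3.1e-07), no KO library overlapped a WT one, and the within-batch differences were 1.20, 1.54 and 1.20. Of these 5 calls it was the 1 that held in all alternative settings tried. Ddx58 was 1.20 ± 0.18 log2 higher (edgeR adjusted p = 3.5e-05), with the lines apart in batches 1 and 3 and level in batch 2, where the difference was 0.02. Oas1g, an oligoadenylate synthetase gene, had 73.3, 72.4, 77.1, 49.1 and 20.7 CPM in KO with IFNγ and 30.5, 33.7, 31.0, 38.8 and 39.3 CPM in WT with IFNγ, a difference of 0.69 ± 0.22 log2 (edgeR adjusted p = 0.016). KO libraries were higher in batches 1 and 2 and lower in batch 3, and with batches 2 and 3 alone the difference was −0.23 (edgeR adjusted p = 0.69). Under vehicle Oas1g had 80.5, 69.5, 69.1, 65.4 and 64.6 CPM in KO cells and 56.6, 53.5, 63.4, 46.7 and 50.7 CPM in WT cells, which did not overlap, with a difference of 0.37 ± 0.21 log2 (edgeR adjusted p = 0.21). Ifi27 was lower in KO cells with IFNγ, at −1.07 ± 0.24 log2 (edgeR adjusted p = 0.0013), at −1.47, −0.19 and −0.19 within batches 1, 2 and 3. Rsad2 was lower too, at −1.05 ± 0.36 log2 (edgeR adjusted p = 0.027). That call was lost without any of replicates 1 to 3 of KO with IFNγ or either WT library of batches 2 and 3 with IFNγ, and the value was −0.55 without the batch 3 WT library. The count of 5 calls also depends on single libraries, since 9 genes were called without the batch 3 WT library with IFNγ (8 higher, 1 lower, beside 36.0% of all genes called) and 9 without the batch 2 KO library with IFNγ (6 higher, 3 lower, beside 40.8% of all genes). On plain library totals 6 were higher and 2 lower, where 35.3% of all genes were called, and in batch 1 alone 19 were higher and 6 lower, where 69.3% of all genes were called.

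The difference of the responses, IFNγ over vehicle in KO cells minus that in WT cells, was called for 4 of the 37 genes, all positive, where 3.64% of all genes were positive and 2.86% negative. The 4 calls are 10.8% of the list, beside 6.5% of all genes called in either direction, and the median over the list was 0.33 log2, beside 0.02 over all genes. The genes were Ifitm3, Ifitm6, Ifi44 and Dhx58. Each of the 4 was lower in KO than in WT cells with vehicle, where 14.8% of all genes were lower. The lines did not overlap there, a trait that was not counted over all genes. None of the 4 was called between the lines with IFNγ, where 39.0% of all genes were called. The difference of the responses is computed from these same vehicle and IFNγ libraries. The low KO level with vehicle and the lack of a call with IFNγ are therefore no separate results. The plot of both responses sets these genes apart from the diagonal.

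**Figure D3:**
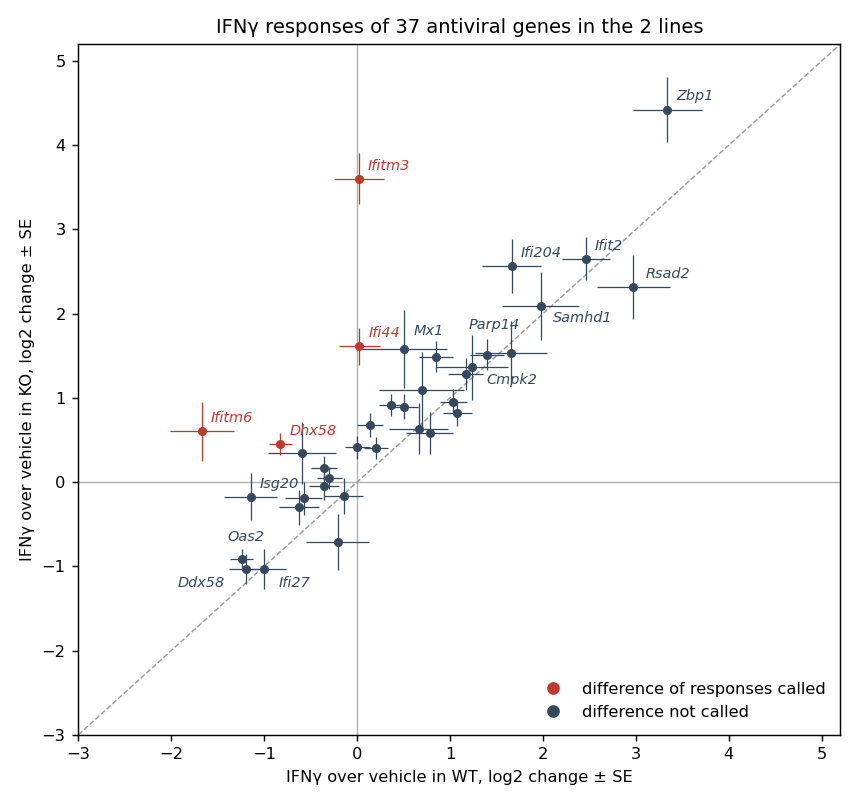
Log2 change with IFNγ in WT cells (horizontal axis) and in KO cells (vertical axis) for the 37 tested antiviral genes, with bars of 1 SE and a dashed line of equal change. Ifitm3, Ifitm6, Ifi44 and Dhx58, drawn in red, are the genes whose difference of responses was called, and Zbp1 shows the largest rise in both lines.

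Ifitm3 had 86.6, 82.6, 81.4, 74.7 and 48.1 CPM in KO with IFNγ, against 8.11, 7.54, 6.80, 3.03 and 5.90 CPM in KO with vehicle. It had 80.3, 87.6, 83.9, 125 and 96.9 CPM in WT with IFNγ, against 142, 113, 131, 31.2 and 90.3 CPM in WT with vehicle. KO libraries with vehicle were the lowest of all and the other 3 groups overlapped. Its level in KO cells with vehicle was 15.8-fold lower than in WT cells with vehicle, a log2 difference of −3.99 ± 0.31 (edgeR adjusted p = 1e-08), at −4.08, −3.33 and −3.92 within batches 1, 2 and 3. The response was 3.60 ± 0.30 log2 in KO cells (edgeR adjusted p = 2.8e-08) and 0.02 ± 0.27 in WT cells (edgeR adjusted p = 0.95). The difference between these responses was 3.58 ± 0.40 (edgeR adjusted p = 4.9e-05). Within batches it was 4.08, 2.58 and 2.91, and with batches 2 and 3 alone the call was lost (edgeR adjusted p = 0.057). The WT response was not steady, at −0.61, 2.00 and 0.10 within the 3 batches. With IFNγ the lines differed by −0.40 ± 0.27 log2 (edgeR adjusted p = 0.25).

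Ifitm6, a myeloid member of the family and the neighbour of Ifitm3, had 10.3, 10.8, 12.4, 5.56 and 7.09 CPM in KO with IFNγ, against 4.87, 2.81, 3.83, 12.2 and 13.6 CPM in KO with vehicle. It had 6.72, 7.40, 6.62, 17.8 and 9.58 CPM in WT with IFNγ, against 27.5, 20.5, 20.6, 32.2 and 51.0 CPM in WT with vehicle. WT libraries with vehicle were the highest of all 4 groups, and within KO cells the order of treatments turned between batch 1 and the other batches. The response was 0.60 ± 0.35 log2 in KO cells (edgeR adjusted p = 0.17) and −1.67 ± 0.34 in WT cells (edgeR adjusted p = 0.00034). The difference of the responses was 2.27 ± 0.49 (edgeR adjusted p = 0.009), with 3.25, −0.27 and 1.47 within batches 1, 2 and 3. With vehicle the KO line was lower, at −2.12 ± 0.35 log2 (edgeR adjusted p = 0.0001).

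Ifi44, a cytoplasmic protein induced by interferon, had 95.2, 103, 107, 27.3 and 38.7 CPM in KO with IFNγ, against 35.4, 30.9, 33.6, 8.62 and 13.0 CPM in KO with vehicle. It had 100.3, 101, 95.3, 31.2 and 79.9 CPM in WT with IFNγ, against 79.3, 76.0, 69.6, 50.4 and 86.7 CPM in WT with vehicle. All KO vehicle libraries lay below all WT vehicle libraries, and in KO cells the treatments overlapped across batches but not within them. The response was 1.61 ± 0.22 log2 in KO cells (edgeR adjusted p = 1.2e-05) and 0.02 ± 0.22 in WT cells (edgeR adjusted p = 0.93). The difference of the responses was 1.59 ± 0.31 (edgeR adjusted p = 0.0044), with 1.21, 2.34 and 1.69 within batches 1, 2 and 3. With vehicle the KO line was lower, at −1.79 ± 0.22 log2 (edgeR adjusted p = 4.7e-06).

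Dhx58 had 35.8, 37.9, 39.0, 34.0 and 22.7 CPM in KO with IFNγ, against 30.0, 28.9, 31.9, 20.8 and 14.9 CPM in KO with vehicle. It had 34.6, 36.7, 33.9, 24.9 and 24.4 CPM in WT with IFNγ, against 65.0, 59.4, 72.2, 34.6 and 45.4 CPM in WT with vehicle. Within every batch the KO library or libraries with IFNγ stood above those with vehicle, and the WT ones stood below. The response was 0.45 ± 0.13 log2 in KO cells (edgeR adjusted p = 0.007) and −0.83 ± 0.13 in WT cells (edgeR adjusted p = 1.5e-05). The difference of the responses was 1.28 ± 0.18 (edgeR adjusted p = 0.00041), with 1.21, 1.18 and 1.50 within batches 1, 2 and 3. With vehicle the KO line was lower, at −1.14 ± 0.13 log2 (edgeR adjusted p = 1e-06), and with IFNγ it differed from WT by 0.14 ± 0.13 (edgeR adjusted p = 0.42).

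None of the 4 calls held in every alternative setting. Those of Ifitm6 and Dhx58 were lost with batches 2 and 3 alone and without the batch term, that of Ifi44 without the batch term, and that of Ifitm3 with batches 2 and 3 alone. Without the batch 2 KO library with IFNγ 8 genes were called, all positive, where 10.4% of all genes were called, and in batch 1 alone 28 were positive and 2 negative, where 51.3% of all genes were called.

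**Figure D4:**
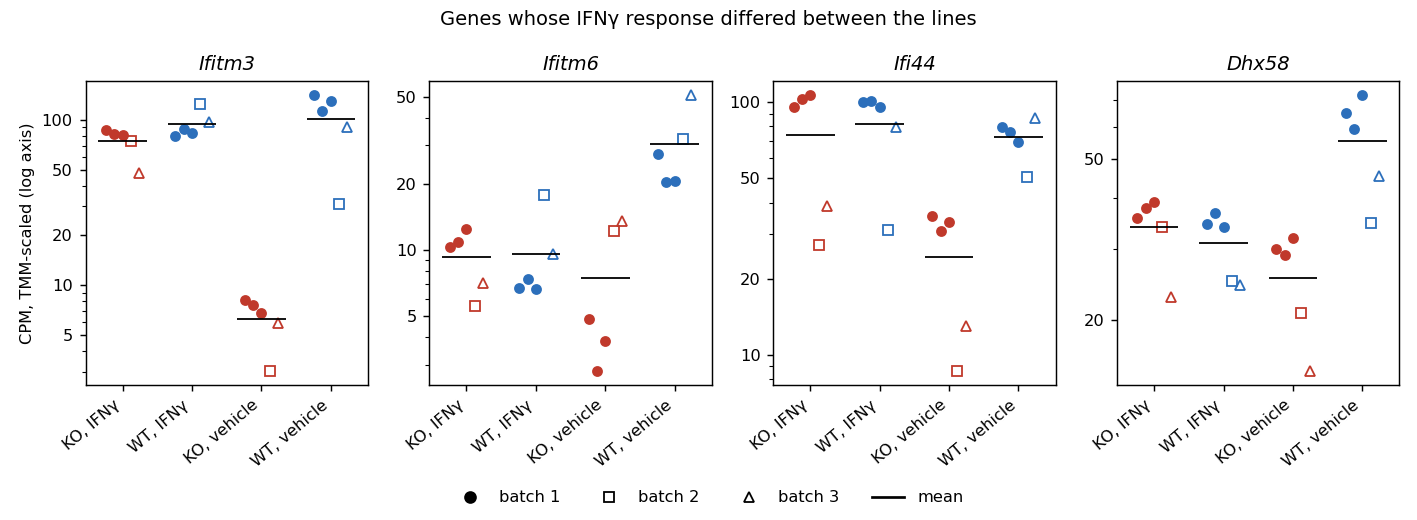
CPM of Ifitm3, Ifitm6, Ifi44 and Dhx58 in every library, on log axes, for KO with IFNγ, WT with IFNγ, KO with vehicle and WT with vehicle, with symbols for batches and bars for group means. In each panel the KO libraries with vehicle lie below all WT libraries with vehicle.

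Batch moved the level of most of these genes. With vehicle, the libraries of batches 2 and 3 both lay below all batch 1 libraries for 33 of the 37 genes in KO cells and 30 in WT cells, where 27.4% and 33.4% of all genes did so. In both vehicle groups 30 genes did so, where 19.5% of all genes did. With IFNγ the same held for 25 genes in KO cells (32.1% of all genes) and 14 in WT cells (35.9% of all genes). Another 4 genes in KO cells and 13 in WT cells lay above batch 1 in both libraries (29.2% and 31.5% of all genes). Ifitm6 and Ifi27 went against the pattern, and in each vehicle group they were the 2 genes above batch 1 in both libraries (23.2% of all genes in KO cells and 33.8% in WT cells). The median log2 response within batches 1, 2 and 3 was 0.65, 0.71 and 1.12 in KO cells and 0.05, 0.40 and 0.55 in WT cells. Whether the Malat1 levels and scaling factors given above have a part in these batch differences was not tested.

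**Figure D5:**
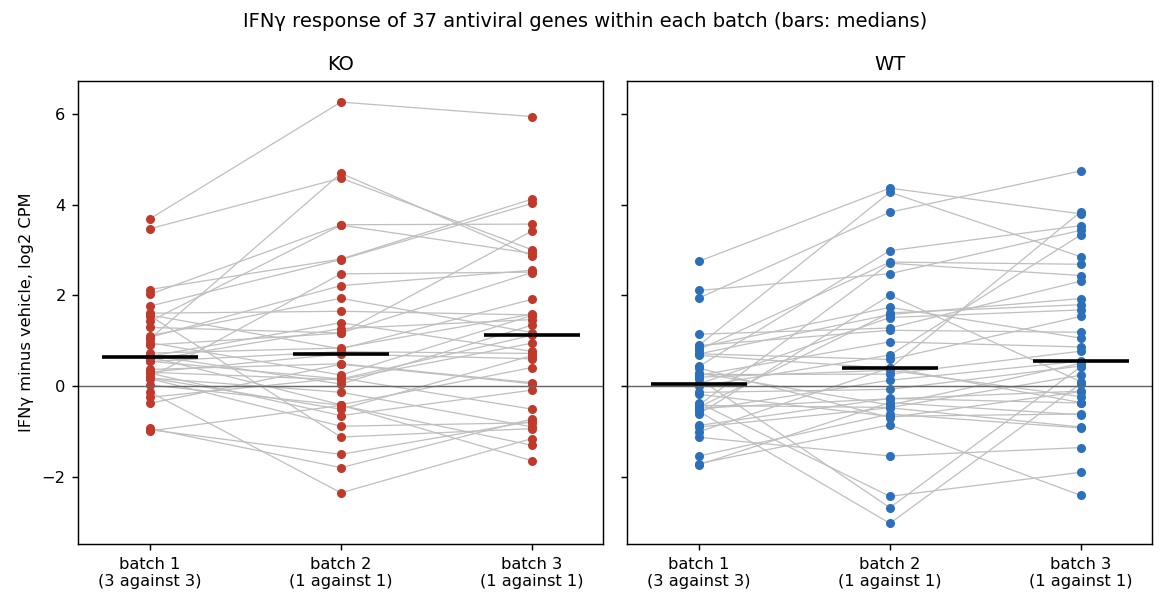
Log2 CPM with IFNγ minus log2 CPM with vehicle for the 37 tested antiviral genes within batch 1 (3 against 3 libraries), batch 2 and batch 3 (1 against 1 each), in KO cells (left) and WT cells (right), with lines joining each gene and bars at the medians. The medians are 0.65, 0.71 and 1.12 in KO cells and 0.05, 0.40 and 0.55 in WT cells.

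Genes around these effectors were read from 3 further lists. Of 16 genes of the type I interferon axis 14 were tested, and 9 rose and 1 fell in KO cells and 11 rose and 1 fell in WT cells. These are 64.3% up and 7.14% down in KO cells, beside 21.4% and 21.8% of all genes, and 78.6% up and 7.14% down in WT cells, beside 29% and 29.9% of all genes. Stat2, a subunit of the type I complex, rose by 2.04 ± 0.17 log2 in KO cells (edgeR adjusted p = 2.9e-08) and 1.93 ± 0.17 in WT cells (edgeR adjusted p = 2.4e-08). Herc6, in mice the ligase that attaches the ubiquitin-like Isg15, rose by 2.35 ± 0.19 log2 in KO cells (edgeR adjusted p = 1.3e-08) and 2.50 ± 0.19 in WT cells (edgeR adjusted p = 3.8e-09). Irf3, the factor that switches on interferon beta, fell, with a log2 change of −0.53 ± 0.19 in KO cells (edgeR adjusted p = 0.027) and −0.54 ± 0.19 in WT cells (edgeR adjusted p = 0.02). The kinase Jak1 rose by 0.81 ± 0.21 log2 in KO cells (edgeR adjusted p = 0.0037) and 1.91 ± 0.21 in WT cells (edgeR adjusted p = 3.4e-07). The difference of −1.10 ± 0.29 was called (edgeR adjusted p = 0.027). The interferon genes Ifnb1 and Ifna4 did not pass the filter, and Ifnb1 had 3.91 CPM in the batch 2 KO library with IFNγ and at most 0.623 CPM in each of the other 19 libraries.

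Of 11 genes around nucleic acid sensing, among them adaptors, kinases and receptors, 4 rose and 4 fell in KO cells. In WT cells 5 rose and 4 fell. Called in either direction were 72.7% of them in KO cells, beside 43.2% of all genes, and 81.8% in WT cells, beside 58.9% of all genes. Ticam1, the adaptor of the double-stranded RNA receptor Tlr3, rose by 1.33 ± 0.17 log2 in KO cells (edgeR adjusted p = 7.4e-06) and 1.48 ± 0.17 in WT cells (edgeR adjusted p = 7.1e-07). The kinase Tbk1 rose by 0.76 log2 in KO cells and 0.75 in WT cells (edgeR adjusted p at most 1.4e-05). The DNA sensor Aim2 rose by 0.67 in KO cells and 0.90 in WT cells, and the adaptor Sting1 by 0.71 in KO cells and 0.68 in WT cells (edgeR adjusted p at most 0.0009). Cgas, which makes the messenger that activates Sting1, fell, with a log2 change of −0.42 in KO cells (edgeR adjusted p = 0.0064) and −0.76 in WT cells (edgeR adjusted p = 1.5e-05). The endosomal RNA receptor Tlr7 fell, with a log2 change of −0.72 in KO cells (edgeR adjusted p = 0.014) and −1.03 in WT cells (edgeR adjusted p = 0.00064). So did its adaptor Myd88, with −0.35 in KO cells (edgeR adjusted p = 0.037) and −0.48 in WT cells (edgeR adjusted p = 0.0034). Of 36 other antiviral interferon-stimulated genes 33 were tested, and 21 rose and 3 fell in KO cells and 15 rose and 5 fell in WT cells. Called in either direction were 72.7% of them in KO cells, beside 43.2% of all genes, and 60.6% in WT cells, near the 58.9% of all genes. Tap1, the peptide transporter of antigen presentation, rose by 2.85 ± 0.20 log2 in KO cells (edgeR adjusted p = 1.9e-09) and 2.66 ± 0.20 in WT cells (edgeR adjusted p = 2.9e-09). The poly(A) polymerase gene Tent5c rose by 2.41 ± 0.18 log2 in KO cells (edgeR adjusted p = 2.9e-09) and 2.19 ± 0.18 in WT cells (edgeR adjusted p = 6.1e-09). The ADP-ribosyltransferase gene Parp11 rose by 1.55 ± 0.13 in KO cells (edgeR adjusted p = 1.9e-08) and 1.11 ± 0.13 in WT cells (edgeR adjusted p = 5e-07). Ifi205, of the PYHIN family, had 33.7, 33.4, 40.6, 21.3 and 29.3 CPM in KO with IFNγ, against 0.613, 0.120, 0.129, 0 and 0.283 CPM in KO with vehicle. It had 54.8, 51.9, 46.6, 119 and 149.7 CPM in WT with IFNγ, against 1.29, 1.89, 2.66, 0.115 and 0.448 CPM in WT with vehicle. IFNγ libraries lay above all vehicle libraries in both lines. The rise was called in KO cells (edgeR adjusted p = 6.2e-08) and in WT cells (edgeR adjusted p = 4e-08). The nucleotidase gene Nt5c3 fell, with a log2 change of −0.74 in KO cells (edgeR adjusted p = 0.0017) and −1.09 in WT cells (edgeR adjusted p = 2.2e-05). The same was called for Oas1c, with −0.87 in KO cells (edgeR adjusted p = 0.013) and −0.96 in WT cells (edgeR adjusted p = 0.0042). With vehicle 8 of these 33 (24.2%) were lower in KO than in WT cells, beside 14.8% of all genes lower and 27.3% called in either direction. In the difference of the responses 2 of the 33 (6.06%) were positive, beside 3.64% of all genes.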

How the data were processed

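The data were 20 RNA-seq libraries of BV-2 cells, WT or labelled RGS10 knockout, with IFNγ or vehicle. The values are raw read counts per gene, as deposited. Per the submitters' processing notes, FastQC, Trim Galore, STAR and DESeq2 were used with the mouse build GRCm39. For the counting tool, strand setting and annotation the sources used here name none, and reads of overlapping or antisense genes cannot be told apart. All 20 count columns matched a library. Symbols came from GENCODE on GRCm38 (91.2% of identifiers), and no coordinate of the counts was used. Promoter windows and gene order came from RefSeq on GRCm38.p6, a build other than that of the counts, with windows matched by symbol.

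Counts were scaled by TMM, filtered with filterByExpr over the 4 groups and fitted in edgeR 4.0.16 (R 4.3.3) with robust quasi-likelihood models of group and batch, which left 14 residual degrees of freedom. Benjamini-Hochberg adjustment ran over 13755 genes per comparison, and genes with an adjusted p under 0.05 are called, the sense in which the report writes that a gene rose, fell, or was higher or lower. SEs are the log2 change divided by the root of the F statistic. Within-batch values are differences of mean log2 CPM with a prior count of 2. The biological coefficient of variation was 24.2% over all libraries and 5.89% within batch 1. No label gives the culture history of the replicates, and the p-values therefore rest on a spread that may be technical. Floors of 3 counts cover counting error only. The fit was also run on simulated counts with known changes and no batch effect. That run does not cover the batch differences described above.

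The 38 genes and the further lists were chosen with earlier results of these data known. Values per library are given for the 4 called genes with the largest change each way in a comparison, the genes called in the difference of the responses or in opposite directions, and the gene with the highest mean CPM called in neither line. Further lists give the called genes with the 4 smallest p each way in the WT response. Some genes that this rule names are not reported here. No list was tested as a set. Alternatives were RLE size factors, plain totals, no filter, DESeq2 1.42.0, limma-voom (limma 3.58.1), no batch term, a replicate block, subsets of batches, and each library left out. Within batch 1, same-numbered libraries of different groups deviated together at correlations of −0.0415 to 0.0397, and the numbers were therefore not used to pair libraries.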

Additional observations from a re-analysis of the deposited data

Results flagged for a closer look

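The response to IFNγ differed between the lines, by a test of the difference itself, for 4 genes, with the KO minus WT difference at 3.58 log2 for Ifitm3, 2.27 for Ifitm6, 1.59 for Ifi44 and 1.28 for Dhx58.

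Single libraries stood apart from the other 4 of their group in 22 of 148 gene and group combinations. The measure was the gap to the nearest library over the range of the group (critical value 0.71). That value marks about 5% where all 5 libraries are alike. Here 3 libraries of each group share a batch and the combinations share libraries, so the 5% is no measure of chance. Of these, 15 were libraries of batch 2, 5 of batch 3 and 2 of batch 1. The batch 2 KO library with IFNγ was lowest for Oas3 (0.815), Eif2ak2 (0.845), Adar (0.718), Ifih1 (0.748), Ifi204 (0.716), Parp14 (0.878) and Dtx3l (0.922) and highest for Bst2 (0.814). The batch 2 WT library with IFNγ was lowest for Ifit1 (0.936), Mx1 (0.83), Adar (0.84), Ifih1 (0.913), Parp14 (0.785), Ifi44 (0.801) and Rtp4 (0.787). The batch 3 KO library with IFNγ was lowest for Dhx58 (0.746) and Ifitm3 (0.749). The batch 3 WT library with IFNγ was highest for Oasl2 (0.743) and Rsad2 (0.778), and the batch 3 KO library with vehicle lowest for Oas3 (0.731). In batch 1, replicate 1 was highest for Isg20 in KO with IFNγ (0.803) and for Bst2 in KO with vehicle (0.728). Malat1 levels and scaling factors of the batch 2 and 3 libraries, given in the report, also differed, and their part in this was not tested.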

How the results depend on the processing

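The counts of genes called with IFNγ were 24 in KO and 24 in WT cells and stayed within 1.5 times under all settings run. The WT split by direction moved. It was 15 rises and 9 falls in the main fit, 18 and 17 in batch 1 alone, and 15 and 3 with batches 2 and 3 alone. The WT median was 0.21, 0.04 and 0.74 log2 in that order, beside 58.9%, 74.0% and 35.7% of all genes called. In KO cells the splits were 21 and 3, 28 and 4, and 18 and 6 (43.2%, 56.6% and 29.9% of all genes called). The count for KO against WT with IFNγ (5) was 8 on plain library totals, 10 without a filter and 25 in batch 1 alone. It was 9 without batch 2 and 10 without batch 3. The share of all genes called moved as well, from 39.0% to 35.3%, 18.9%, 69.3%, 45.8% and 41.0% in that order. The count for KO against WT with vehicle (10, beside 27.3% of all genes) was 26 in batch 1 alone, beside 58.4%. The count for the difference of the responses (4) was 7 without a filter, 7 with limma-voom and 1 without the batch term. It was 30 in batch 1 alone, 2 with batches 2 and 3 alone, 9 without batch 2 and 7 without batch 3. Of all genes 6.5% were called in the main fit, and 4.51%, 7.52%, 1.0%, 51.3%, 0.861%, 13.9% and 11.8% in that order. The causes of these shifts were not tested, nor was the part of the spread within batch 1 that is given with the methods. With 1 library left out, the counts were 22 to 26 (KO response), 22 to 25 (WT response), 4 to 9 (KO against WT with IFNγ), 10 to 13 (with vehicle) and 4 to 8 (difference of the responses). Of all genes 35.1 to 40.8%, 54.1 to 58.4%, 32.9 to 40.8%, 22.8 to 25.2% and 3.86 to 10.4% were called, in that order. The Rgs10 difference was then −1.29 to −1.07 log2. With the replicate number as a block the counts were 24 for the KO response and 23 for the WT response (39.0% and 55.7% of all genes). They were 5 and 10 for KO against WT with IFNγ and with vehicle (34.8% and 23.3%), and 4 for the difference (3.85%). Rgs10 differed by −1.17 log2. The block removed the call of Eif2ak2 in WT cells and no other among the 38 genes.

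Of 185 values (37 genes in 5 comparisons), called or not, the sign turned for 29 in batch 1 alone, 33 with batches 2 and 3 alone and 0 to 15 in the other settings that left out no single library. The turns with a call on either side numbered 15 in batch 1 alone, 2 with batches 2 and 3 alone and 1 without batch 2. In batch 1 alone the WT response was −0.47 for Mx1, −0.42 for Mx2, −0.63 for Ifitm3, −0.15 for Parp9 and 0.15 for Rtp4, and the KO response 0.20 for Oas1a and 0.19 for Ifi35. KO against WT with IFNγ was 0.63 for Oasl1, 0.42 for Oasl2, 0.14 for Dtx3l and 0.66 for Ifi35, and the difference of the responses 0.59 for Ifit1, 0.68 for Oasl1, 0.54 for Oasl2 and 0.74 for Ifi35. With batches 2 and 3 alone Oasl2 was instead called lower in KO than in WT cells with IFNγ. Without batch 2 the WT response of Ifitm3 was −0.43. With batches 2 and 3 alone KO against WT with IFNγ was −0.23 for Oas1g, and the KO response of Parp9 was −0.0117. Turns there with no call on either side include the KO response of Ifitm6, at −1.05, KO against WT with IFNγ for Oas1a, at −0.33, and the difference of the responses for Oas1g, at −0.65, and Oas1a, at −0.32. On plain totals the median of all genes moved to −0.16 log2 (KO response), −0.21 (WT response) and 0.13 (KO against WT with IFNγ), and the WT response then held 13 rises and 11 falls among the 38 genes, so changes above are relative to the bulk of the genes. Over all alternatives, 17 of 24 calls in the KO response, 13 of 24 in the WT response, 6 of 10 with vehicle, 1 of 5 with IFNγ and 0 of 4 in the difference of the responses held in each setting.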

Other observations

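Some genes outside the 38 also differed between the lines in their response, and they were picked after their values were seen. Ifi206, a PYHIN gene of the Ifi203 and Ifi204 family, had 32.1, 36.1, 40.6, 58.0 and 55.6 CPM in KO with IFNγ and 1.87, 1.00, 1.12, 0.0777 and 0.242 CPM in KO with vehicle. It had 32.3, 32.5, 29.4, 53.8 and 49.4 CPM in WT with IFNγ and 6.61, 7.37, 8.25, 1.04 and 2.07 CPM in WT with vehicle. The response was 5.77 ± 0.58 log2 in KO cells (edgeR adjusted p = 3e-07) and 3.07 ± 0.50 in WT cells (edgeR adjusted p = 3.5e-05), a difference of 2.70 ± 0.70 (edgeR adjusted p = 0.026).

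Pnpt1, a mitochondrial RNA-degrading enzyme, had 122, 129, 129, 64.3 and 54.7 CPM in KO with IFNγ and 148, 149, 137, 95.6 and 108 CPM in KO with vehicle. It had 66.2, 65.9, 64.0, 34.4 and 33.7 CPM in WT with IFNγ and 172, 181, 174, 91.3 and 84.0 CPM in WT with vehicle. It fell in both lines, with a log2 change of −0.43 ± 0.11 in KO cells (edgeR adjusted p = 0.0028) and −1.40 ± 0.11 in WT cells (edgeR adjusted p = 3.8e-09), a difference of 0.97 ± 0.15 (edgeR adjusted p = 0.00086). The kinase Ikbke, which phosphorylates Irf3 as Tbk1 does, changed by 0.03 ± 0.15 log2 in KO cells (edgeR adjusted p = 0.89) and fell in WT cells, at −0.89 ± 0.15 (edgeR adjusted p = 4.4e-05), a difference of 0.92 ± 0.21 (edgeR adjusted p = 0.013).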
